A study of Mus musculus with 75 samples.

Results

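The barrier of the lung is sealed by cell-cell junctions, and 9 of their genes were followed here in the bleomycin (BLEO) model of idiopathic pulmonary fibrosis (IPF), by symbol, among the 55536 genes of the count table. They comprised the claudin genes *Cldn1*, *Cldn3*, *Cldn5*, *Cldn7* and *Cldn18*, occludin (*Ocln*), the scaffold gene *Tjp1* (zonula occludens protein ZO-1) and the cadherin genes *Cdh1* (E-cadherin) and *Cdh5* (VE-cadherin). *Cdh1* and *Cdh5* belong to the adherens junction rather than to the tight junction. All 9 were among the 16221 genes that passed the filter on low counts, with 54 to 14684 counts per mouse. RNA of the inferior lobe was sequenced in 75 male C57BL/6JRj mice, 1 library per mouse, aged 12 to 14 weeks at dosing. They formed 7 groups, namely 10 control mice (CTRL) and BLEO-IPF mice that were terminated 7 days (n = 10), 14, 21, 28 or 35 days (n = 12 each) or 42 days (n = 7) after a single intratracheal instillation of bleomycin sulphate. The labels give the treatment of CTRL as saline, whereas the protocol calls these mice untreated. BLEO-IPF mice had been randomized only if they had lost 5 to 17% of body weight on day 6, so both milder and more severe responses to BLEO are not represented. Libraries held 9240291 to 14665247 counts on genes, and the library least like its own group had a median correlation with that group of 0.932 (day 14 replicate 8) to 0.984 (CTRL replicate 2).

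Tight junctions form a belt near the apical side of neighbouring cells. Claudins are membrane proteins whose strands decide which ions and solutes pass between cells, occludin travels with them, and ZO-1 ties the strands to the actin skeleton. Below the belt, classical cadherins hold the cells together through calcium-dependent contacts, E-cadherin in epithelium and VE-cadherin in endothelium. In the lung, claudin-18 is typical of the alveolar epithelium, claudin-3 is abundant in alveolar type 2 (AT2) cells, claudin-1 and claudin-7 are best known from the airways, and claudin-5 is the main claudin of blood vessels and is also made by some alveolar epithelium. ZO-1 is made in both layers.

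*Cldn18* has alternative start sites, the upstream of which is known to give the lung form and the downstream the stomach form. The counts are per gene and do not separate them. To show how unlike the regions before the starts of these genes are, the 120 bases before both *Cldn18* starts are printed beside those of the vascular gene *Cldn5*, of *Ocln* and of *Tjp1*. They come from RefSeq on GRCm38.p6, which held such windows for 7 of the 9 genes (not for *Cdh1* and *Cdh5*). The upstream *Cldn18* stretch is chr9:99717268-99717387 (minus strand) and the downstream chr9:99710064-99710183 (minus strand). The others are *Cldn5*, chr16:18776727-18776846 (plus strand), *Ocln*, chr13:100552719-100552838 (minus strand), and *Tjp1*, chr7:65371245-65371364 (minus strand). All are written 5′ to 3′ toward the start, and none overlaps an annotated exon. The *Tjp1* start used lies inside the gene as annotated for the counts, which begins at chr7:65527781. Capitals mark matches to GGGCGG (the core of the GC box) or to CCAAT, either as such or as their reverse complements CCGCCC and ATTGG.
Cldn18 upstream: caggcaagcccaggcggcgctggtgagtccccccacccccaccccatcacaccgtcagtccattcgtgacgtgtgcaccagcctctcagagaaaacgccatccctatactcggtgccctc
Cldn18 downstream: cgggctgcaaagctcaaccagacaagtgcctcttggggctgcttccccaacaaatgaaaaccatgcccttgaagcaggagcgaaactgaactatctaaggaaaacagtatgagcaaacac
Cldn5: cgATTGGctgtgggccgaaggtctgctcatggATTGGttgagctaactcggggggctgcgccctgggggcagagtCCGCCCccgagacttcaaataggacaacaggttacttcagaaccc
Ocln: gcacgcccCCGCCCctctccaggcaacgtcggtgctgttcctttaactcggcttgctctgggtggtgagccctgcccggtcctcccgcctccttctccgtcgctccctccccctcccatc
Tjp1: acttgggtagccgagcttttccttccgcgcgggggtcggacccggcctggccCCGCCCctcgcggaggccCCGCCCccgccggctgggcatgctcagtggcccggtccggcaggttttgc

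In the whole 250 bases before the start, neither *Cldn18* window held GGGCGG or CCAAT. The *Cldn5* window held 1 GGGCGG and 2 CCAAT, and the *Tjp1* window 2 GGGCGG. The *Cldn1* window held 2 GGGCGG, the *Cldn3* window 1 and the *Ocln* window shown 1, while of the windows before both *Cldn7* starts the second held 1. Over all 32851 RefSeq windows of this length, searched on both strands, 32.7% held GGGCGG and 33.8% held CCAAT. The GC content was 52% and 54% before the *Cldn18* starts, 59.6% for *Cldn5*, 63.2% for *Tjp1* and 64% for the *Ocln* window shown, beside a median of 52.4% over all windows. The letters CAGGTG (an E-box) were found in 17.2% of all windows, and among these genes in the window before the second starts of *Cldn7* and *Ocln* (2 matches each). These motifs were chosen after the sequences had been seen, and a match is not a site in use.

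Each BLEO-IPF day was set against CTRL with the quasi-likelihood F test of edgeR, fitted to all 75 mice at once, with Benjamini-Hochberg adjustment of the p-values over all 16221 genes. A gene is said to have risen or fallen where the adjusted p was under 0.05. Levels are in CPM, the counts after scaling to a common library size by TMM. Changes are log2 fold changes (log2FC), given with their standard error (SE). On day 14, 7 of the 9 genes fell and none rose, and all 9 log2FC were negative, between -0.52 and -0.18. The median was -0.40, while that of all genes tested was 0.01. In that comparison 29.9% of all genes fell and 32.4% rose. Without day 14 replicate 8, the library least like its group, 5 of the 9 fell. *Cdh5*, *Tjp1* and *Ocln* were already lower on day 7, and *Cldn18* was the single gene of the 9 that rose above CTRL in this fit, on days 35 and 42. As whole tissue was sequenced, fewer cells of a type and less RNA per cell cannot be told apart.

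**Figure D1:**
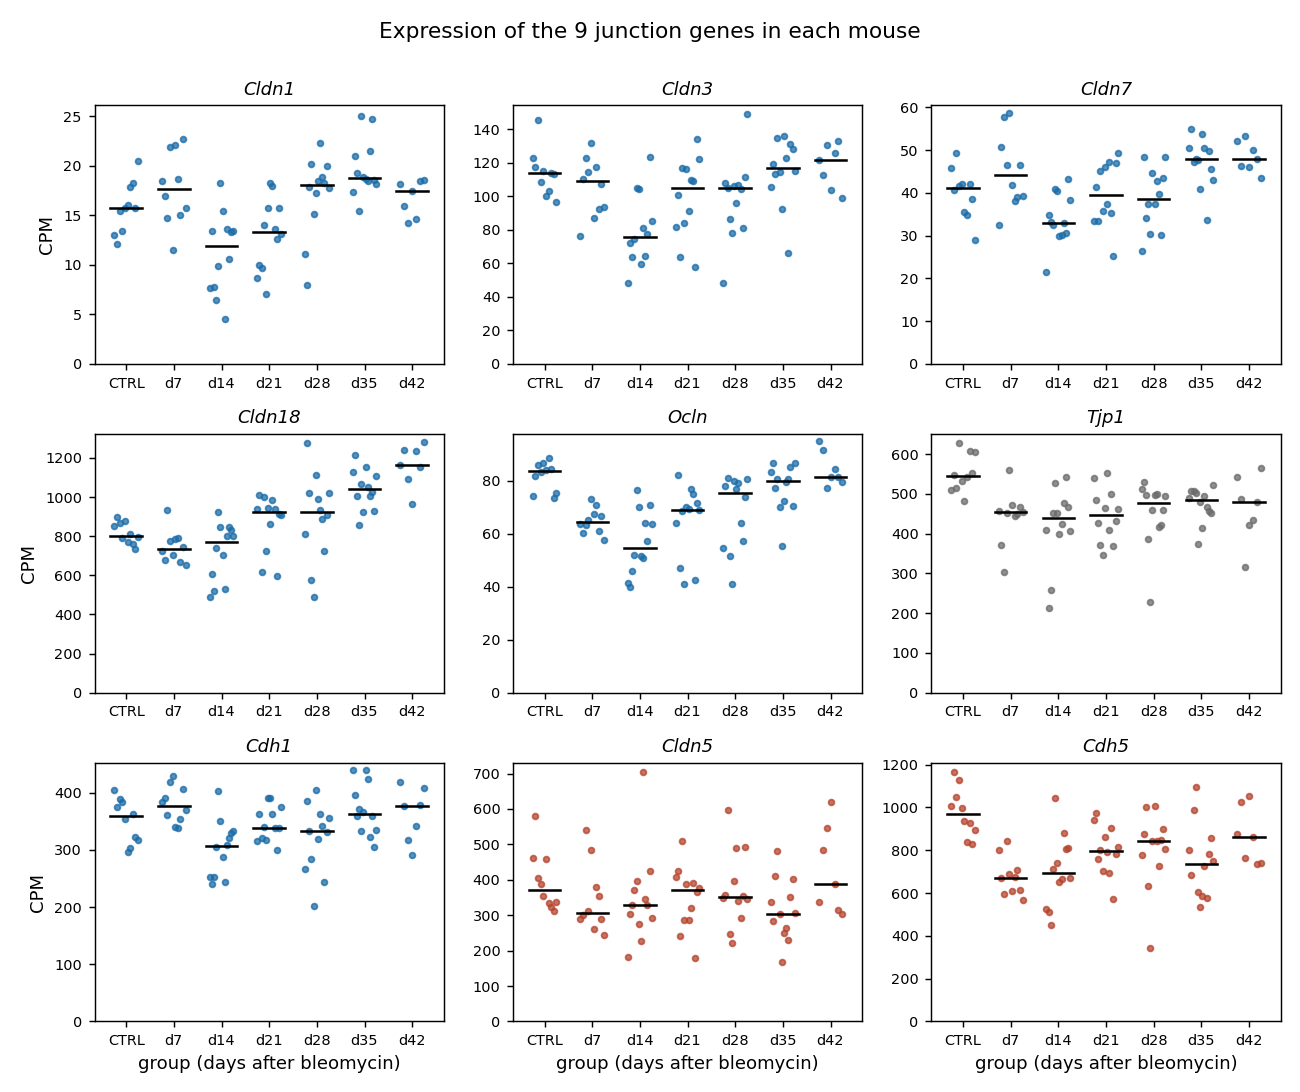
CPM (y axes from 0) of each of the 9 genes in every mouse, by group (x axes). Points are mice, black lines group medians, and colors set epithelial genes (blue), endothelial genes (red) and *Tjp1* (grey) apart. The 7 day 42 points of *Cldn18* all lie above the 10 CTRL points, and the 10 day 7 points of *Ocln* all lie below the CTRL points.

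*Cldn18*, the claudin of the alveolar epithelium, did not pass the test on day 14 and ended above CTRL. Its lowest, median and highest values were 735, 803 and 898 CPM in CTRL and 491, 770 and 923 CPM on day 14. They were 860, 1040 and 1214 CPM on day 35 and 965, 1166 and 1282 CPM on day 42. The groups thus overlapped on day 14, 11 of 12 mice lay above the highest CTRL mouse on day 35, and on day 42 all 7 did. On days 21 and 28 the mice were split, with 8 and 7 of 12 above the highest CTRL mouse. On each of these days 3 mice were below the lowest, and neither day passed the test (adjusted p of 0.467 and 0.299). Among all genes tested, 4.22% lay wholly above CTRL on day 42. The log2FC was -0.18 ± 0.10 on day 14 (adjusted p = 0.123), 0.35 ± 0.10 on day 35 (adjusted p = 0.00717) and 0.51 ± 0.12 on day 42 (adjusted p = 0.000855). The rise on day 42 corresponds to a fold of 1.42. On day 35, 16.9% of all genes rose, and on day 42, 13.7%. The spread between mice was widest on day 28, with a coefficient of variation of 24.7% compared with 6.82% in CTRL.

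*Cldn3*, a sealing claudin, fell on day 14 only. CTRL mice had 96.6 to 145 CPM with a median of 114, and day 7 mice 76.4 to 132 CPM with a median of 109. Day 14 mice had 48 to 124 CPM (median 75.9) and day 42 mice 99.1 to 133 CPM (median 121). On day 14, 9 of 12 mice were below the lowest CTRL mouse, although the groups overlapped. The log2FC was -0.51 ± 0.13 (adjusted p = 0.000482), a fall of 29.7%. On days 21 and 28 it was -0.20 ± 0.13 and -0.21 ± 0.13, with adjusted p of 0.182 and 0.187.

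*Cldn7*, a claudin of the airway epithelium, changed less. CTRL mice had 29.1 to 49.4 CPM (median 41.1), day 14 mice 21.5 to 43.3 CPM (median 33.1) and day 42 mice 43.5 to 53.2 CPM (median 48). Most day 14 mice overlapped with CTRL, with 1 of 12 below the lowest CTRL mouse. The log2FC on day 14 was -0.23 ± 0.10 (adjusted p = 0.0452), and the call was lost without day 14 replicate 8 (adjusted p = 0.0779) or without a filter on low counts (adjusted p = 0.0907). On days 35 and 42 *Cldn7* stood at 0.24 ± 0.10 and 0.28 ± 0.12 against CTRL, with adjusted p of 0.0676 and 0.0692.

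*Cldn1*, a claudin needed for the water barrier of skin, was the least abundant of the 9 genes, with 54 to 306 counts per mouse. CTRL mice had 12.1 to 20.5 CPM (median 15.7) and day 7 mice 11.5 to 22.7 CPM (median 17.7). The range was 4.53 to 18.2 CPM (median 11.9) in day 14 mice and 14.2 to 18.5 CPM (median 17.5) in day 42 mice. Of the day 14 mice, 6 of 12 were below every CTRL mouse and the others overlapped. *Cldn1* fell on day 14 by 0.50 ± 0.15 on the log2 scale (adjusted p = 0.00338). On day 21 the log2FC was -0.28 ± 0.15 (adjusted p = 0.115), and from day 28 on it was positive without passing the test.

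*Ocln*, the occludin gene, was lower from day 7 to day 28. CTRL mice had 73.7 to 88.6 CPM (median 83.8) and day 7 mice 57.8 to 73 CPM (median 64.6). Day 14 mice had 40.1 to 76.5 CPM (median 54.8) and day 42 mice 77.5 to 94.9 CPM (median 81.6). All 10 mice on day 7 and 11 of 12 on day 14 were below the lowest CTRL mouse, whereas 0 of 7 were on day 42. On day 7, 3.8% of all genes lay wholly below CTRL. The log2FC was -0.33 ± 0.10 on day 7 (adjusted p = 0.00668), reached -0.52 ± 0.10 on day 14 (adjusted p = 7.76e-06) and returned to -0.33 ± 0.10 on day 21 (adjusted p = 0.00352). It was -0.26 ± 0.10 on day 28 (adjusted p = 0.0274), -0.08 ± 0.10 on day 35 and 0.05 ± 0.11 on day 42. The 95% intervals of the last values were -0.27 to 0.12 and -0.18 to 0.27. The mice were tight around their group mean in CTRL and on day 7 (coefficients of variation of 6.63% and 7.29%) and scattered on days 14, 21 and 28 (20.3 to 21.1%).

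*Tjp1*, the ZO-1 scaffold gene of both layers, fell on days 7, 14, 21 and 28. CTRL mice had 482 to 629 CPM (median 544), day 7 mice 304 to 559 CPM (median 453), day 14 mice 212 to 541 CPM (median 438) and day 42 mice 316 to 564 CPM (median 479). Below the lowest CTRL mouse were 9 of 10 mice of day 7, 10 of 12 of day 14 and 4 of 7 of day 42. The log2FC of these days was -0.32 ± 0.11, -0.40 ± 0.11 and -0.25 ± 0.12, with adjusted p of 0.0151, 0.000875 and 0.12. Days 21 and 28 gave -0.31 ± 0.11 and -0.30 ± 0.11. In contrast to the epithelial claudins, *Tjp1* stayed on the lower side of CTRL in its estimate on all 6 days, with a range of -0.40 to -0.23.

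*Cdh1*, the epithelial cadherin, moved least among the genes that fell on day 14. CTRL mice had 296 to 404 CPM (median 359) and day 7 mice 338 to 429 CPM (median 377). Day 14 mice had 240 to 403 CPM (median 307) and day 42 mice 291 to 419 CPM (median 377). On day 14, 5 of 12 mice were below every CTRL mouse. The log2FC was -0.21 ± 0.08 (adjusted p = 0.022), a decrease of 13.7%, and without day 14 replicate 8 the adjusted p was 0.0529. On the other days the estimates lay between -0.14 and 0.11 and did not pass the test.

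*Cdh5*, the cadherin of endothelial cells, fell early and passed the test on every day up to day 35, although the calls of days 21 and 28 changed with the setting. CTRL mice had 827 to 1167 CPM (median 967), and day 7 mice 567 to 845 CPM (median 672). The values were 449 to 1044 CPM (median 693) in day 14 mice, 534 to 1097 CPM (median 737) in day 35 mice and 736 to 1055 CPM (median 861) in day 42 mice. On day 7, 9 of 10 mice were below the lowest CTRL mouse, and on day 42, 3 of 7. The log2FC on day 7 was -0.53 ± 0.12 (adjusted p = 0.00034), the lowest of any of the 9 genes against CTRL. It was -0.47 ± 0.12 on day 14 (adjusted p = 0.000453) and -0.38 ± 0.12 on day 35 (adjusted p = 0.00918). On days 21 and 28 the log2FC was -0.29 ± 0.12 (adjusted p of 0.0334 and 0.0412), and both calls were lost without CTRL replicate 2 (adjusted p of 0.0569 and 0.0692). The call on day 21 was also lost without day 21 replicate 10 (adjusted p = 0.0593). Without a filter on low counts neither day passed (adjusted p of 0.0736 and 0.0882), and day 28 did not when only its mice and CTRL were fitted (adjusted p = 0.0601).

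*Cldn5*, the vascular claudin, passed the test on none of the 6 days, neither with edgeR nor with DESeq2 and at no unadjusted p under 0.05. CTRL mice had 312 to 580 CPM (median 371) and day 7 mice 245 to 541 CPM (median 306). The range widened to 181 to 703 CPM (median 329) in day 14 mice and was 304 to 620 CPM (median 388) in day 42 mice. The highest day 14 mouse lay above and 5 of 12 lay below all CTRL mice. The coefficient of variation was 21.2% in CTRL and 37.5% on day 14, the widest of the 9 genes in both groups. The log2FC on day 14 was -0.18 ± 0.17, with a 95% interval of -0.52 to 0.15, and the log2FC of *Cdh5* on that day lies inside this interval. Day 35 came closest (log2FC -0.33 ± 0.17, unadjusted p = 0.0572, adjusted p = 0.138).

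**Figure D2:**
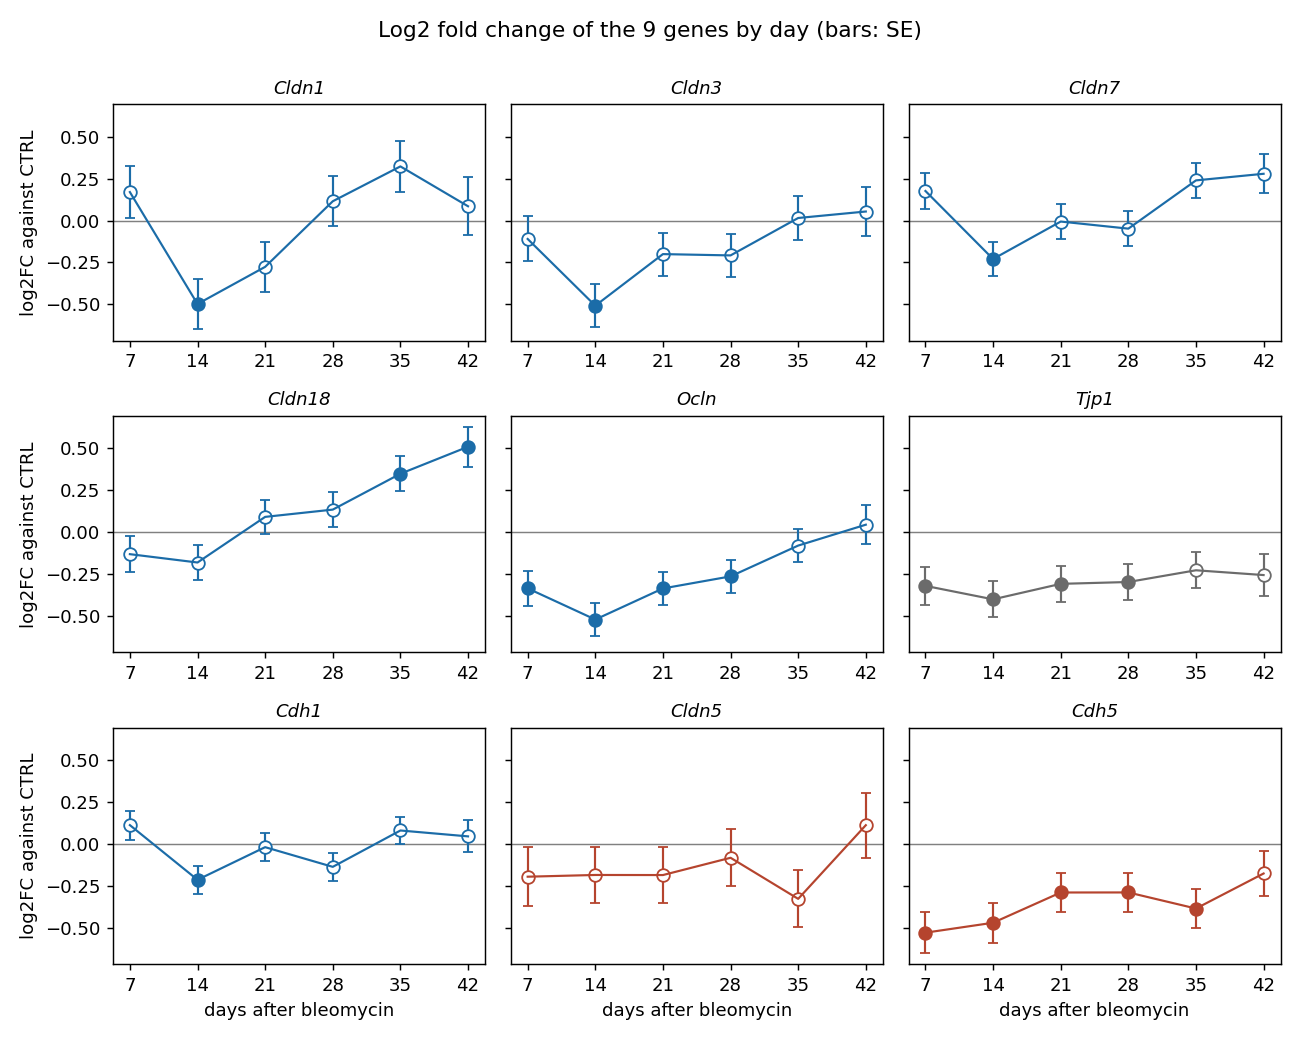
Log2FC against CTRL (y axes) of each gene by day after bleomycin (x axes). Bars are SE, filled points passed an adjusted p of 0.05 and open points did not, and colors are as for the CPM values by mouse. On day 14 all 9 estimates lie below 0 and 7 are filled, and on day 42 only *Cldn18* is filled, at 0.51.

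Counted by day, 3 of the 9 genes fell on day 7 (*Ocln*, *Tjp1* and *Cdh5*), 7 on day 14 and 3 each on days 21 and 28 (again *Ocln*, *Tjp1* and *Cdh5*). On day 35, *Cdh5* was lower and *Cldn18* higher, and on day 42 *Cldn18* was higher and none was lower (1 of the 9, *Tjp1*, at an unadjusted p under 0.05, and none with DESeq2). The share of all genes tested that fell was 21% (day 7), 25.8% (day 21), 19.2% (day 28), 13.1% (day 35) and 11% (day 42). The number of these genes that fell exceeded the share of all genes most on day 14, and no test was made of that difference. All 3 calls on day 28 rested on day 28 replicate 5. This mouse had the lowest level of its group for 6 of the 9 genes, and without it the adjusted p was 0.0758 for *Ocln*, 0.0526 for *Tjp1* and 0.106 for *Cdh5*, so that 0 genes passed. Day 28 replicate 5 also had the highest level of the collagen gene *Col1a1* (3274 CPM) and the lowest of the endothelial gene *Pecam1* (431 CPM) in its group. The libraries least like their groups on days 21 and 35 (replicates 10 and 6) likewise had the highest *Col1a1* of their days (4910 and 1934 CPM). Those of CTRL and of days 7, 14 and 42 did not. All days share the 10 CTRL mice, so that a chance deviation of these mice enters every day.

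The change from day 7 to day 14, which does not involve CTRL, was tested in the same fit. *Cldn1*, *Cldn3*, *Cldn7* and *Cdh1* fell between these days, while 7.55% of all genes did. *Cldn1* fell by 0.67 ± 0.15 on the log2 scale (adjusted p = 0.00125) and *Cldn7* by 0.41 ± 0.10 (adjusted p = 0.00358). *Cldn3* fell by 0.40 ± 0.13 (adjusted p = 0.0231) and *Cdh1* by 0.33 ± 0.08 (adjusted p = 0.00409). These 4 genes are epithelial. *Epcam*, an epithelial gene used below as a reference, fell by 0.39 ± 0.08 (adjusted p = 0.000216). So did 5 of 9 AT2, 4 of 5 club cell, 5 of 6 ciliated cell, 4 of 7 transitional alveolar and 3 of 5 epithelial markers. Of the 8 markers of alveolar type 1 (AT1) cells and the 8 endothelial markers, 0 fell. Whether the junction genes differed from these markers was not tested. For the endothelial genes the difference was 0.06 ± 0.12 (*Cdh5*) and 0.01 ± 0.17 (*Cldn5*), with 95% intervals of -0.17 to 0.29 and -0.32 to 0.34. *Ocln* differed by -0.19 ± 0.10 (adjusted p = 0.204), *Tjp1* by -0.08 ± 0.11 and *Cldn18* by -0.05 ± 0.10.

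From day 14 to day 42, 6 of the 9 genes rose (*Cldn1*, *Cldn3*, *Cldn7*, *Cldn18*, *Ocln* and *Cdh1*) and none fell, while 15.2% of all genes rose. *Cldn18* had the largest difference of the 9, 0.69 ± 0.11 (adjusted p = 2.7e-06). *Ocln* rose by 0.57 ± 0.11 (adjusted p = 5.28e-05), *Cldn3* by 0.56 ± 0.14 (adjusted p = 0.00137) and *Cdh1* by 0.26 ± 0.09 (adjusted p = 0.0232). All 6 genes are those of the epithelium, and many epithelial markers rose as well. *Epcam* rose by 0.40 ± 0.08 (adjusted p = 0.000119). So did 9 of 9 AT2, 5 of 8 AT1 and 4 of 5 epithelial markers, *Epcam* among them, with a median log2FC of 0.92 for AT2. Fewer rose among club cell (2 of 5) and ciliated cell markers (1 of 6), and 1 AT1 and 2 of 7 transitional alveolar markers fell. For *Cdh5*, *Cldn5* and *Tjp1* the differences were 0.29 ± 0.13 (adjusted p = 0.0717), 0.30 ± 0.19 (adjusted p = 0.216) and 0.14 ± 0.12 (adjusted p = 0.351). *Cdh5* passed with library size alone (0.32, adjusted p = 0.0437) and with upper quartile factors (0.32, adjusted p = 0.0464). *Pecam1*, the CD31 gene of endothelial cells, rose by 0.31 ± 0.10 (adjusted p = 0.0166), as did 4 of 8 endothelial markers, *Pecam1* among them. Whether the epithelial and endothelial genes differed in this change was not tested.

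To set the genes against their own tissue layer, the log2 ratio of each to *Epcam* (an adhesion molecule of epithelial cells) or to *Pecam1* (CD31, an adhesion molecule of endothelial cells) was formed in every mouse and tested with limma. *Epcam* itself rose on day 7 (log2FC 0.33 ± 0.08, adjusted p = 0.00049), day 35 (0.25 ± 0.08) and day 42 (0.34 ± 0.09), and its log2FC on day 14 was -0.06 ± 0.08. *Pecam1* fell on days 7 to 35, by 0.35 ± 0.10 on day 7 and by 0.49 ± 0.09 on day 14. Relative to *Epcam*, none of the 7 genes tested was higher than in CTRL on any day, and the number that was lower was 5 (day 7), 4 (day 14), 4 (day 21), 1 (day 28), 2 (day 35) and 3 (day 42). The share of all 16220 genes other than *Epcam* that was lower was 53.9% (day 7), 20.3% (day 14), 23.9% (day 21), 15.8% (day 28), 42.2% (day 35) and 52.5% (day 42). This share was largest on the days on which *Epcam* itself rose.

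*Ocln* was lower relative to *Epcam* on all 6 days, although the calls of days 28 and 42 each rested on a single mouse. The change in its log2 ratio was -0.66 ± 0.11 on day 7 (adjusted p = 2.15e-06), -0.48 ± 0.11 on day 14 (adjusted p = 0.000184) and -0.30 ± 0.13 on day 42 (adjusted p = 0.0392). Without day 28 replicate 5 the adjusted p of day 28 was 0.0535, and without CTRL replicate 2 that of day 42 was 0.0703. A second reference was the mean of 5 epithelial genes (*Epcam*, *Nkx2-1*, *Elf3*, *Grhl2* and *Esrp1*). Of these, 2 rose and 2 fell on day 7 (median log2FC -0.01), and on day 14, 2 fell and 0 rose (median -0.13). With this mean in place of *Epcam* alone, *Ocln* was lower on days 7, 14, 21 and 35 (-0.33, -0.19, -0.24 and -0.27). On days 28 and 42 it no longer passed (adjusted p of 0.123 and 0.474). *Tjp1* was lower relative to *Epcam* on every day but day 28, by 0.37 ± 0.14 on day 14 and 0.61 ± 0.17 on day 42, and with the 5 genes on days 7, 35 and 42. Its call of day 21 was lost without CTRL replicate 2 (adjusted p = 0.0517). *Cldn3* was lower on days 7, 14 and 21 (-0.45 ± 0.12, -0.48 ± 0.12 and -0.29 ± 0.12), but on none of these days with the 5 genes (adjusted p of 0.371, 0.0621 and 0.382). The day 21 call of *Cldn3* was also lost without CTRL replicate 2 (adjusted p = 0.0705) or day 21 replicate 10 (adjusted p = 0.0802). *Cldn1* was lower on days 14 and 21 (-0.50 ± 0.16 and -0.37 ± 0.16), again not with the 5 genes (adjusted p of 0.194 and 0.33).

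*Cldn18* relative to *Epcam* was lower on day 7 alone (-0.46 ± 0.11, adjusted p = 0.00031), and on day 42 its change was 0.17 ± 0.12 (adjusted p = 0.236). Against the mean of the 5 epithelial genes it was not lower on day 7 (adjusted p = 0.253) and was higher on days 21, 28 and 42, by 0.20, 0.23 and 0.36. *Cdh1* was lower relative to *Epcam* on days 7 and 42 (-0.21 ± 0.09 and -0.30 ± 0.10), and on neither day with the 5 genes (adjusted p of 0.198 and 0.373). The call of day 7 was also lost without CTRL replicate 2 (adjusted p = 0.103) or day 7 replicate 3 (adjusted p = 0.0918). *Cldn7* passed on no day in this fit, with changes between -0.17 and 0.00. Most calls relative to *Epcam* were thus lost with the mean of the 5 genes, which includes *Epcam*.

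Relative to *Pecam1*, the estimates of *Cdh5* were close to 0 after day 7, while those of *Cldn5* were mostly positive. For *Cdh5* the change in the log2 ratio was -0.17 ± 0.07 on day 7 (adjusted p = 0.0336) and between -0.06 and 0.05 on the later days, with SE of 0.07 to 0.08. With the mean of 8 endothelial genes, *Pecam1* among them, in place of *Pecam1* alone the day 7 value was 0.01 (adjusted p = 0.937). The call was also lost without CTRL replicate 2 (adjusted p = 0.0721) or day 7 replicate 3 (adjusted p = 0.0696). *Cldn5* was higher relative to *Pecam1* on day 14 (0.28 ± 0.13, adjusted p = 0.0426). Without day 14 replicate 8 the change was 0.17 ± 0.12 and did not pass (adjusted p = 0.173). With the 8 genes *Cldn5* was higher on days 7 (0.32, adjusted p = 0.0323) and 14 (0.38, adjusted p = 0.00838). *Tjp1* changed by -0.08 to 0.12 relative to *Pecam1*, with SE of about 0.10, and passed on no day. The ratio to *Pecam1* differed from CTRL in either direction for 56.5% of all genes on day 7 and for 75.2% on day 14.

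**Figure D3:**
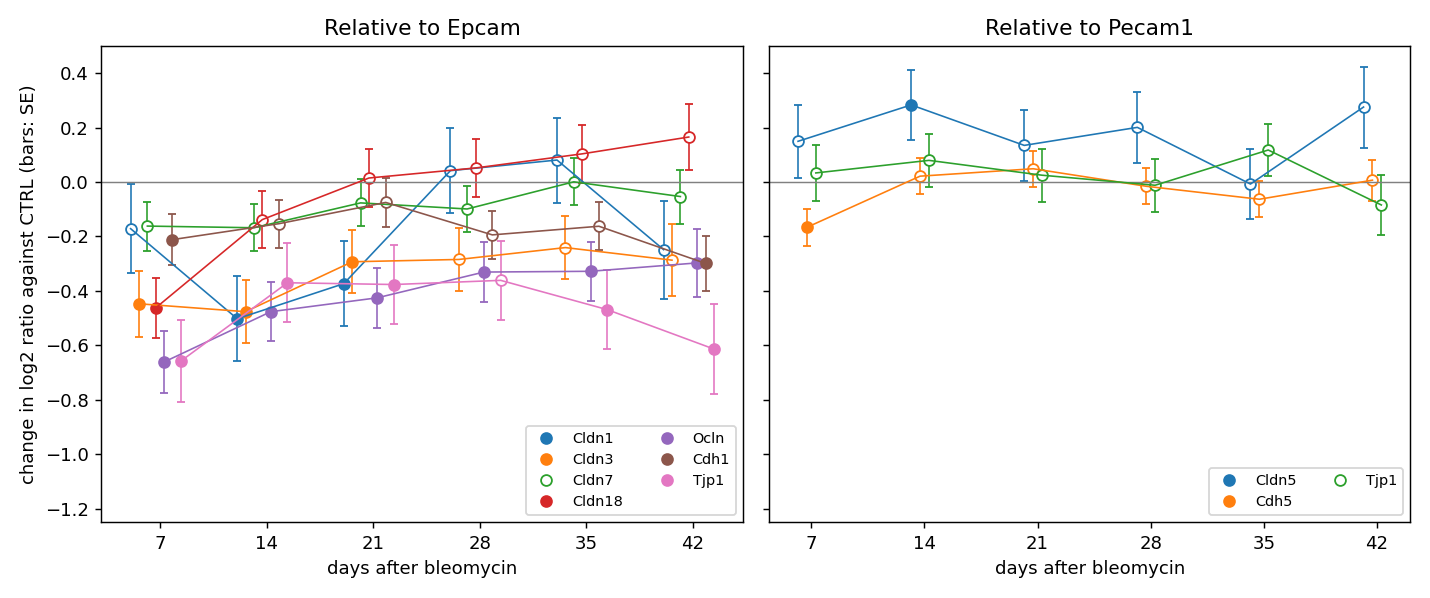
Change against CTRL in the log2 ratio of each gene to *Epcam* (left) or *Pecam1* (right) on the y axis, by day after bleomycin on the x axis. Points are fitted values, shifted sideways for legibility, bars are SE, and filled points passed an adjusted p of 0.05. Most *Epcam* ratios lie below 0 and those of *Ocln* are filled on all 6 days, whereas *Cdh5* stays within 0.07 of 0 after day 7.

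Markers of the cell types that carry these junctions moved as well. In CTRL the 8 AT1 markers summed to 6035 to 8034 CPM, the 9 AT2 markers to 23000 to 27990, the 5 epithelial markers to 292 to 337 and the 8 endothelial markers to 4030 to 4673, so that markers of all these cell types were well detected. On day 14 the sums were 4197 to 7038 (AT1), 6657 to 24240 (AT2), 191 to 310 (epithelial) and 2072 to 3737 (endothelial). On that day 8 of 8 endothelial markers, 6 of 9 AT2 markers, 5 of 8 AT1 markers, 4 of 5 club cell markers, 6 of 6 ciliated cell markers and 2 of 5 epithelial markers fell. In contrast, 6 of 7 markers of transitional alveolar epithelial cells, 4 of 5 fibroblast markers, 3 of 5 leukocyte markers, 3 of 4 lymphatic endothelial markers, 1 of 4 mesothelial markers and 1 of 4 basal cell markers rose, as did 1 AT1 marker. *Krt15*, the fifth basal cell marker, did not pass the filter on low counts. Of all genes tested, 29.9% fell and 32.4% rose on day 14, and no marker list was tested against these shares.

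On day 42, 0 of 8 AT1 and 0 of 9 AT2 markers were below CTRL, and 1 and 2 were above it. Of the airway markers, 2 of 6 for ciliated and 1 of 5 for club cells were still lower. Still or newly higher were 3 of 4 basal cell, 3 of 5 leukocyte, 3 of 4 lymphatic endothelial, 1 of 5 fibroblast and 1 of 5 epithelial markers. Of all genes tested, 11% were lower and 13.7% higher on day 42. The AT2 sum was then 24940 to 31150 CPM, the AT1 sum 6732 to 7896 and the epithelial sum 312 to 396, 4 of 8 endothelial markers were still lower, and 6 of 7 transitional markers were still higher. The part of these shifts in the junction genes was not tested. The median log2FC of the 8 endothelial markers was -0.50 on day 14 (range -0.97 to -0.38) and -0.26 on day 42 (range -0.60 to 0.28). *Cdh5* (-0.47 and -0.18) lay within these ranges on both days. *Cldn5* (-0.18 and 0.11) lay above the range on day 14 and within it on day 42, and these differences were not tested.

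Per length of transcript, the 9 genes covered a wide range. In RPKM (CPM per kilobase of exon) the CTRL means were 279 ± 59.2 (SD, n = 10) for *Cldn5*, 233 ± 27.3 for *Cdh5*, 183 ± 12.5 for *Cldn18*, 90.3 ± 11 for *Cldn3*, 76.7 ± 8.4 for *Cdh1*, 70.7 ± 6.12 for *Tjp1*, 20.5 ± 2.97 for *Cldn7*, 19.4 ± 1.29 for *Ocln* and 3.27 ± 0.53 for *Cldn1*. Neighbours in this order overlapped between mice within the first 3 genes, within the next 3, and between *Cldn7* and *Ocln*, while the gaps below *Cldn18*, *Tjp1* and *Ocln* were free of overlap. *Cldn18* was thus the most abundant of the epithelial claudins and *Cldn1* the least. On day 14 the same 3 gaps remained, and the means of *Cdh1* (66.1) and *Cldn3* (63.5) changed places. On day 42 *Cldn18* (261 ± 24.2, n = 7) stood above *Cdh5* (206 ± 31.5), with overlap between mice. Its mean was above that of *Cdh5* on days 7, 21, 28 and 35 as well. On day 35 it was also above that of *Cldn5* (233 and 223), again with overlap.

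**Figure D4:**
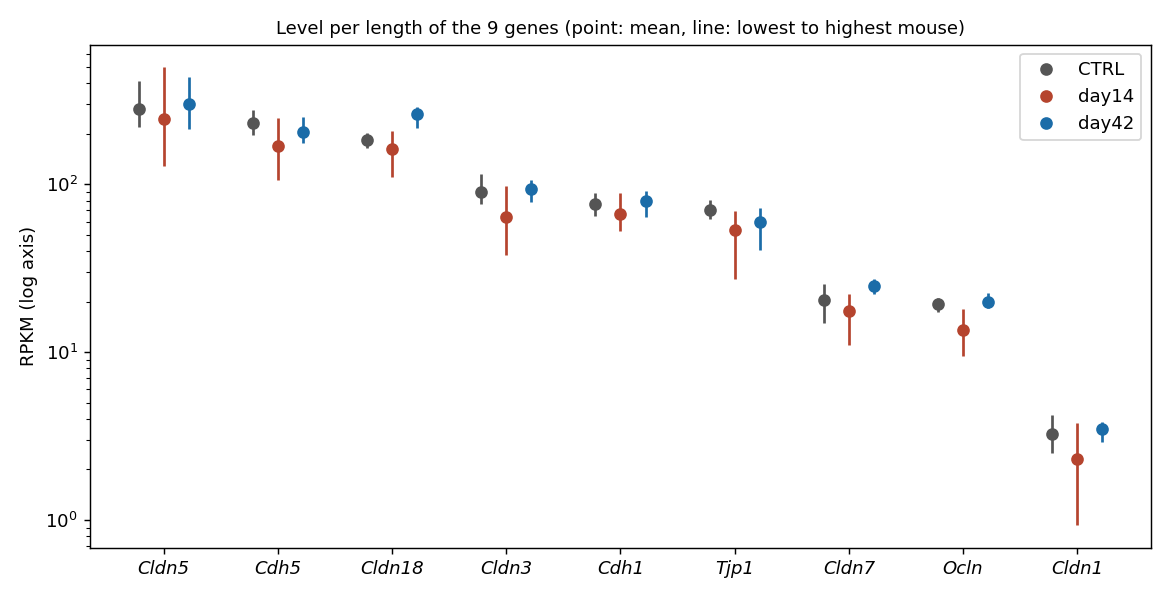
RPKM (y axis, logarithmic) of the 9 genes (x axis, in the order of their CTRL means) in CTRL mice, on day 14 and on day 42. Points are means and lines run from the lowest to the highest mouse. The 3 tiers of genes in CTRL, led by *Cldn5* (279), *Cldn3* (90.3) and *Cldn7* (20.5), and *Cldn1* below them (3.27), are also seen on days 14 and 42.

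Among themselves, the genes differed in how alike their levels were over the mice. Likeness was measured as the root mean square (RMS) difference of log2 CPM over the 75 mice, after each gene was centered on its own mean. This measure takes in differences between groups and is larger for genes that vary more, so it is not a correlation. The closest pairs of the 9 were *Cldn3* and *Cldn7* (0.18), *Cldn7* and *Cdh1* (0.20) and *Cldn18* and *Ocln* (0.21), and the pair farthest apart was *Cldn1* and *Cldn5* (0.67). For scale, the RMS deviation of a gene from its own mean was 0.22 for *Cdh1*, the steadiest, and 0.46 for *Cldn1*, the most variable. The mice share libraries and days, so these values describe this series and carry no test.

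Of the 13814 genes with a mean log2 CPM above 1 and a symbol, those nearest to each junction gene were as follows. *Cldn3* was nearest to *Cldn7* (0.18), *Spint2*, an inhibitor of membrane serine proteases (0.18), and the secreted protein gene *Wfdc2* (0.19). *Cldn7* was nearest to *Spint2* (0.17), *Cldn3* and *0610040J01Rik* (0.19). *Cdh5* was nearest to *Dlc1*, a GTPase-activating protein (0.14), *Pecam1* (0.14) and *Parvb*, an adaptor of focal adhesions (0.16). *Cldn5* was nearest to *Egfl7*, secreted by endothelium (0.21), *Esam*, an endothelial adhesion molecule (0.25), and *Smagp* (0.25).

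The remaining neighbours came from many gene families. *Tjp1* was nearest to *Arhgap31* (0.13), *Sptan1*, a spectrin (0.14), and *Afdn*, the scaffold afadin (0.14). *Cdh1* was nearest to *Ap1m2*, an adaptor of epithelial protein sorting (0.15), *Ezr* (ezrin, 0.16) and *Pafah2* (0.16). *Ocln* was nearest to *Alcam*, an adhesion molecule (0.12), *Trp53bp2* (0.13) and *Snx25* (0.14). *Cldn18* was nearest to *Sh2d4a* (0.17), *Emb* (0.18) and *Dram1* (0.18). *Cldn1* had the least close neighbours, *Ift81* (0.31), *Ephx1* (0.31) and *Cd55* (0.32).

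The other genes of the junctions formed 5 lists with 82 genes, of which 71 were tested. On day 14, 36 of the 71 fell and 14 rose, with a median log2FC of -0.17. The corresponding numbers were 20 and 16 (day 7), 31 and 15 (day 21), 22 and 16 (day 28), 19 and 12 (day 35), and 13 and 11 (day 42). Among all genes tested the rises made up 24.8% (day 7), 32.4% (day 14), 28.3% (day 21), 24.1% (day 28), 16.9% (day 35) and 13.7% (day 42), and the falls 21%, 29.9%, 25.8%, 19.2%, 13.1% and 11%, in the same order. For falls, the share of the 71 genes was above that of all genes at each time. For rises it was below it from day 7 to day 28, equal on day 35 and slightly above on day 42, and neither difference was tested. The 8 other claudins that were tested split on day 14, when 4 fell and 3 rose. *Cldn4*, a claudin of distal airways and injured alveoli, rose from 6.11 ± 1.26 CPM (SD, n = 10) to 56.6 ± 27.2 (n = 12), a log2FC of 3.21 ± 0.35 (adjusted p = 4.85e-12). On day 42 it was at 13.6 ± 7.34 CPM (log2FC 1.15 ± 0.39). *Cldn2*, a channel-forming claudin, rose by 2.7 ± 0.33 on the log2 scale, from a low level (CTRL mice ranged between 3 and 11 counts). *Cldn10*, another channel-forming claudin, fell from 19.8 ± 2.65 to 7.54 ± 3.15 CPM (log2FC -1.38 ± 0.21), and *Cldn8* fell by 1.12 ± 0.22.

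Among 13 other membrane proteins of the tight junction, 4 rose and 2 fell on day 14. *Ildr2*, an angulin of tricellular contacts, rose by 2.13 ± 0.20 and *Clmp*, an adhesion molecule, by 2.09 ± 0.24. *Marveld2* (tricellulin), which is related to occludin, fell by 0.44 ± 0.09, and *Esam* by 0.19 ± 0.08. Of the 24 scaffold and polarity genes, 15 fell and 1 rose, with a median of -0.24. The gene that rose was *Ybx3* (0.44 ± 0.08), which binds ZO-1, and the lowest were the polarity kinase *Prkcz* (-0.75 ± 0.10) and the scaffold *Magi2* (-0.75 ± 0.13).

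Of 16 further adherens junction genes, 9 fell and 4 rose on day 14. The cadherin genes moved in opposite directions. *Cdh3* (P-cadherin) rose by 1.91 ± 0.28 from a low level (CTRL mice ranged between 3 and 17 counts). *Cdh11*, a cadherin of mesenchymal cells, rose by 0.76 ± 0.11 (adjusted p = 1.89e-08), while *Cdh13* (T-cadherin) fell by 0.73 ± 0.16. *Ptprb*, the phosphatase that acts on VE-cadherin contacts, fell from 1440 ± 149 to 864 ± 185 CPM (log2FC -0.74 ± 0.13) and was still lower on day 42 (-0.64 ± 0.15, adjusted p = 0.000835). Among 10 desmosome genes 6 fell and 2 rose, including *Ppl* (periplakin, -0.86 ± 0.13), *Dsg2* (-0.55 ± 0.14) and *Pkp3* (plakophilin-3, 0.21 ± 0.08). On day 42 *Ppl* (-0.80 ± 0.16, adjusted p = 7.77e-05) and *Dsg2* (-0.55 ± 0.16, adjusted p = 0.00991) were still lower, while *Pkp3* did not pass (adjusted p = 0.122).

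**Figure D5:**
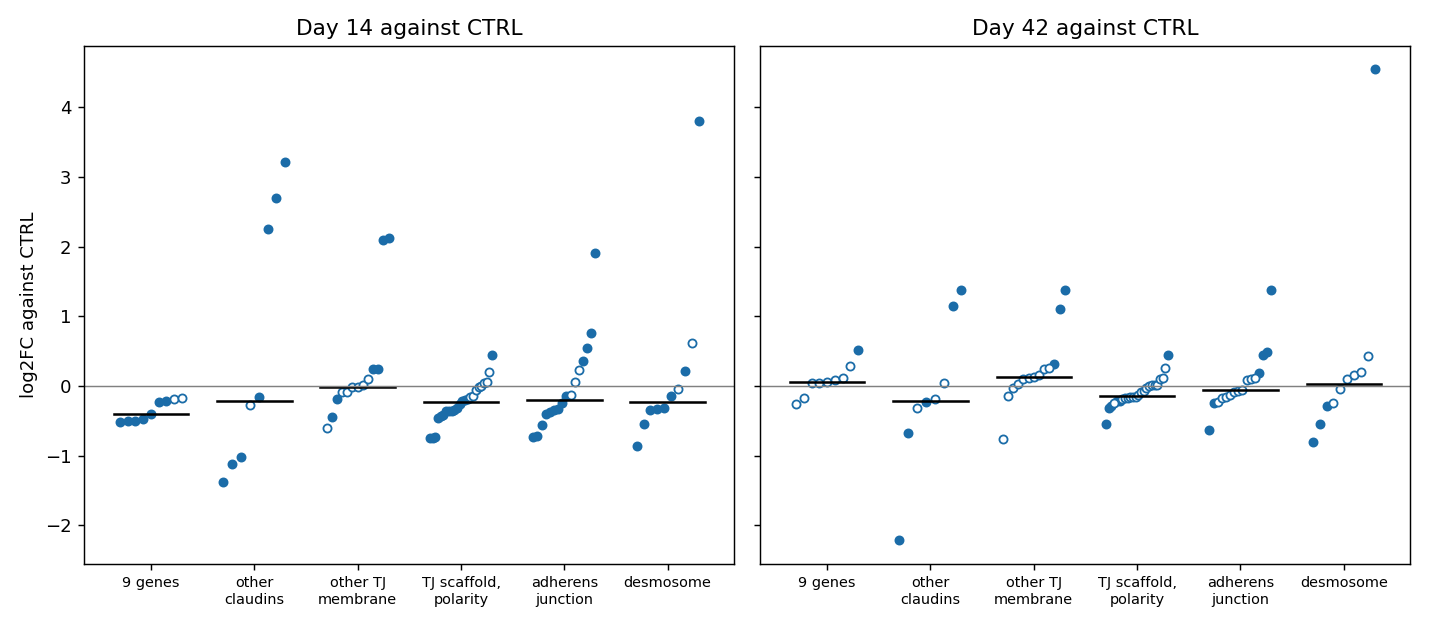
Log2FC against CTRL (y axis) on day 14 (left) and day 42 (right) of the 9 genes and of the 5 lists of other junction genes (x axis, TJ for tight junction). The uppermost desmosome point in both panels is *Pkp1*, which had very few counts in CTRL. Each point is a gene, filled where the adjusted p was under 0.05, and black lines are medians. On day 14 the 9 genes lie between -0.52 and -0.18, a narrower span than the other claudins, which run from -1.38 (*Cldn10*) to 3.21 (*Cldn4*).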

How the data were processed

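The authors purified RNA of the inferior lobe, prepared stranded libraries, sequenced them single-end and aligned the reads with STAR 2.7.0f to GRCm38 with Ensembl release 96. The table the authors deposited holds raw counts, whole numbers for each gene and mouse. The counting program is not given in the sources used here, nor is its treatment of strand and of multiply mapped reads. Genes that overlap these 9 held at most 0.2% as many counts as the gene itself.

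From the counts, edgeR 4.0.16 (R 4.3.3) was run with TMM factors, filterByExpr and 7 group means, with Benjamini-Hochberg adjustment over 16221 genes at 0.05. SE are of the fitted log2FC. Log2 ratios used log2 CPM with a prior count of 2 and limma 3.58.1. RPKM used the exon union length. Figures were drawn with matplotlib 3.10.9. On simulated day 14 counts edgeR recovered 63 of 100 genes changed 1.5-fold and 89 of 100 changed 2-fold, and called 8 unchanged genes of 16109 tested.

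The 9 genes and the gene lists were chosen with earlier results of these data known. Named beside them were the 3 nearest genes of each, *Epcam*, *Pecam1* and, per list, the 2 highest and 2 lowest log2FC on day 14 among genes with an adjusted p under 0.05 and a mean log2 CPM above 1. Other genes (*Pkp1*, *Krt15*, *Col1a1* and the epithelial reference genes other than *Epcam*) were named after their values were seen. The alternatives were DESeq2 1.42.0, library size alone, upper quartile factors, other filters, a block for the replicate number, fits restricted to the mice being compared, an absolute log2FC of at least 0.5 and, for the ratios, marker means and a prior count of 0.5. Leaving out the library least like its group was added after the data were seen. Replicates are separate mice.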

Additional observations from a re-analysis of the deposited data

Results flagged for a closer look

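*Cldn18* in day 7 replicate 3 stood at 935.3 CPM, apart from the other 9 mice of that day by more than their spread. This was 1 of 27 sets of a gene and a group checked in this way, where chance gives about 1 in 20. The sets did not cover every gene in every group. *Cldn5* in day 14 replicate 8 (703 CPM, others 181.5 to 424.4) also stood apart by more than the spread of the others. So did *Tjp1* in day 28 replicate 5 (229.2 CPM, others 386.2 to 529.9), and neither was flagged. Between BLEO-IPF days, the log2FC from day 7 to day 14 differed from 0 for *Cldn1* (-0.67), *Cldn3* (-0.40), *Cldn7* (-0.41) and *Cdh1* (-0.33). The log2FC from day 14 to day 42 differed from 0 for *Cldn1* (0.58), *Cldn3* (0.56), *Cldn7* (0.51), *Cldn18* (0.69), *Ocln* (0.57) and *Cdh1* (0.26).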

How the results depend on the processing

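In 504 refits of the 9 genes over the 8 comparisons, with all libraries, 486 results kept their direction and their side of the threshold, and 4 changed sign, none of them a call. With an absolute log2FC of at least 0.5 required as well, 1, 2, 0, 0 and 0 of the 9 genes were called on days 7, 14, 21, 28 and 35, and 1 from day 7 to day 14. Without a filter on low counts, 1 gene was called on day 28 (*Tjp1*), and without day 28 replicate 5, 0 were. Fits of only the groups compared called 5 genes on day 35 and 3 on day 42, adding *Cldn7* and *Tjp1* on both days and *Cldn1* on day 35. The log2FC of *Cldn5* from day 7 to day 14 turned to -0.033 with library size alone, -0.029 with upper quartile factors and -0.016 with the replicate block. Leaving out the library least like its group gave -0.13 to 0.092 for it, -0.0099 to 0.19 for *Cldn5* on day 42 and -0.012 to 0.033 for *Cldn7* on day 21.

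With the mean of 5 epithelial markers in place of *Epcam*, 2, 1 and 2 genes were called on days 7, 14 and 21. The 2 of day 21 were *Ocln* (lower) and *Cldn18* (higher), and the 1 of day 28 was *Cldn18* (higher) instead of *Ocln*. The sign then turned for *Cldn1* (0.16), *Cldn7* (0.17) and *Cdh1* (0.12) on day 7, and for *Cldn7* (0.12), *Cldn18* (0.15) and *Cdh1* (0.13) on day 14. It also turned for *Cldn7* (0.11) and *Cdh1* (0.12) on day 21 and for *Cldn7* on days 28 (0.080) and 42 (0.15). With the mean of 8 endothelial markers in place of *Pecam1* it turned for *Cdh5* on days 7 (0.0068), 28 (0.040) and 35 (0.0028), for *Tjp1* on day 28 (0.044) and for *Cldn5* on day 35 (0.059). Leaving out the library least like its group gave 2 to 3 genes called relative to *Epcam* on day 21 and 0 to 1 on day 28, and relative to *Pecam1* 0 on day 7 and 0 to 1 on day 14. The ratio to *Pecam1* then turned to 0.0047 (without CTRL replicate 2) and 0.016 (without day 28 replicate 5) for *Cdh5* on day 28, and to 0.048 (without CTRL replicate 2) and 0.034 (without day 35 replicate 6) for *Cldn5* on day 35. The cause was not tested.

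Whether the replicate numbers pair the mice was not settled, as no chance level was worked out for the values that follow. The library names run through the groups replicate by replicate. Same-numbered mice of different groups correlated at -0.66 to 0.71 (median 0.02) over 204 pairs of mice, with 74 pairs above 0.1, and in 30 pairs a mouse correlated best with its own number. A replicate block turned the log2FC of *Cldn3* on day 35 to -0.051, the ratio of *Cldn7* to *Epcam* on day 35 to -0.024 and that of *Cdh5* to *Pecam1* on day 42 to -0.0097, and 3 genes were called relative to *Epcam* on day 28 (*Cldn3*, *Ocln* and *Tjp1*). It also added *Cldn3* against CTRL on days 21 and 28 (adjusted p of 0.0354 and 0.0343). Relative to *Epcam* it added *Cldn3* on days 35 and 42 (adjusted p of 0.0188 and 0.0351), so that *Cldn3* was lower on all 6 days, and *Cldn7* on day 14 (adjusted p = 0.0293), while *Ocln* on day 42 was lost (adjusted p = 0.0552).

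At 9240291 to 14665247 counts per library depth limits *Cldn1* most.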
